A study of Mus musculus with 8 samples.

Results

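The chemokine receptors examined here were Ccr4, Ccr6, Ccr7, Ccr8, Ccr9, Cxcr3, Cxcr4, Cxcr5 and Cxcr6, 9 of the 18193 gene symbols that the array annotation gives. They were taken as every probe set annotated to 1 of these symbols alone, which gave 14 of 45101 probe sets. Ccr9 had 5 probe sets, Cxcr6 had 2 and each other receptor had 1. Ccr4, Ccr8, Ccr9, Cxcr5 and Cxcr6 lie on mouse chromosome 9, Ccr6 on chromosome 17, Ccr7 on chromosome 11, Cxcr4 on chromosome 1 and Cxcr3 on chromosome X.

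Chemokine receptors are membrane proteins with several transmembrane helices that couple to inhibitory G proteins and steer a cell along gradients of small secreted proteins, the chemokines. Naive CD4 T cells circulate through lymph nodes by means of CCR7, and activated cells replace part of this set with receptors for follicles, gut, skin or inflamed tissue. TGF-b is a cytokine that activates the transcription factors Smad2 and Smad3 and is known to steer activated CD4 T cells toward regulatory and Th17 fates, which carry different receptors.

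Naive CD4 T cells (CD25 negative, CD44 low, CD62L high) were sorted from spleens of mice labelled C57BL/6J. All cultures lasted 24 h. They held antibodies to CD3e (on the plate) and CD28 (in solution), 1 ug/ml of either, blocking antibodies to the cytokines IFN-g and IL-4, 10 ug/ml of either, and 10 ng/ml of IL-2. The groups were Smad2KO (Smad2del/del, a deletion made in T cells), Smad3KO (Smad3-/-), Smad2KO_Smad3het (Smad2del/del Smad3+/-) and wild type (WT), each with TGF-b at 2 ng/ml or without it. The labels give neither the promoter that drove the Smad2 deletion, nor the age of the mice, nor whether animals were pooled. The fourth genotype stood in for cells without both Smads, whose naive cells could hardly be collected. Each of the 8 combinations had 1 array, so a difference between 2 arrays has no replicate check. The p-values below for mean responses rest on how the response to TGF-b varied among genotypes. Those for levels rest on how genotype differences varied with treatment. Those for differences between responses rest on the gap between the 2 genotypes that were averaged. None rests on replicate arrays.

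Signals are probe set intensities, scaled so that all arrays had the same 2% trimmed mean. A signal under the floor of 41.8, the median of all scaled signals, was treated as background, and one of at least 83.7, which is 2 times the floor, was called present. CD4 T cell markers were present on every array, 6 of 6 measured (Cd3d, Cd3e, Cd3g, Cd4, Cd5 and Cd28). On the 6 arrays of Smad2KO, Smad3KO and WT, 0 of 5 B cell, 0 of 3 NK cell and 0 of 2 CD8 T cell markers were present, and 0 or 1 of 6 myeloid markers. The summed B cell signal there ran from 45.1 to 72.8, with all 5 markers under the floor. The 2 Smad2KO_Smad3het arrays, with and without TGF-b, stood apart. They showed 3 and 1 B cell, 4 and 4 myeloid, 3 and 1 NK cell and 1 and 2 CD8 T cell markers as present, Cd8a among them at 1336 and 915. Their scaled medians of 90.9 and 88.0 lay above the present threshold, so a marker present there can lie near the array's median. Of all probe sets 52.3% and 51.4% were present on them, against 34.3% to 35.7% on the other 6 arrays. Their rank correlation with the other 6 arrays was 0.660 to 0.693, against 0.907 to 0.928 among those 6. Their values are therefore given as readings, and tests rest on the other 6 arrays unless stated. In such bulk samples fewer cells carrying a receptor and less of its RNA per cell cannot be told apart.

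On those 6 arrays 8 of the 9 receptors were present at least once, by 9 probe sets, and Ccr9 was under the floor on all of them. Ccr7 and Cxcr6 were present with and without TGF-b. Ccr4, Ccr6, Ccr8, Cxcr3, Cxcr4 and Cxcr5 were present only on arrays with TGF-b, so these 6 probe sets entered the tests through the condition in which they were high. Of all 17497 probe sets tested, 5.32% entered that way. Ccr8, Ccr6, Ccr4 and Ccr7 passed the test of the mean TGF-b response, 4 probe sets, all higher with TGF-b, and 0 were lower. Across all probe sets tested 6.24% were called higher and 3.73% lower, by limma with genotype as a block and Benjamini-Hochberg adjustment at 0.05. The median response of the 9 receptor probe sets was 0.53 on the log2 scale, against -0.00085 over all tested. The filter described above fixes part of this excess. With the Smad2KO_Smad3het pair added, 0 receptor probe sets passed limma's test and 5 had an unadjusted p under 0.05, while only 19 of 28827 probe sets of any gene were called higher.

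**Figure D1:**
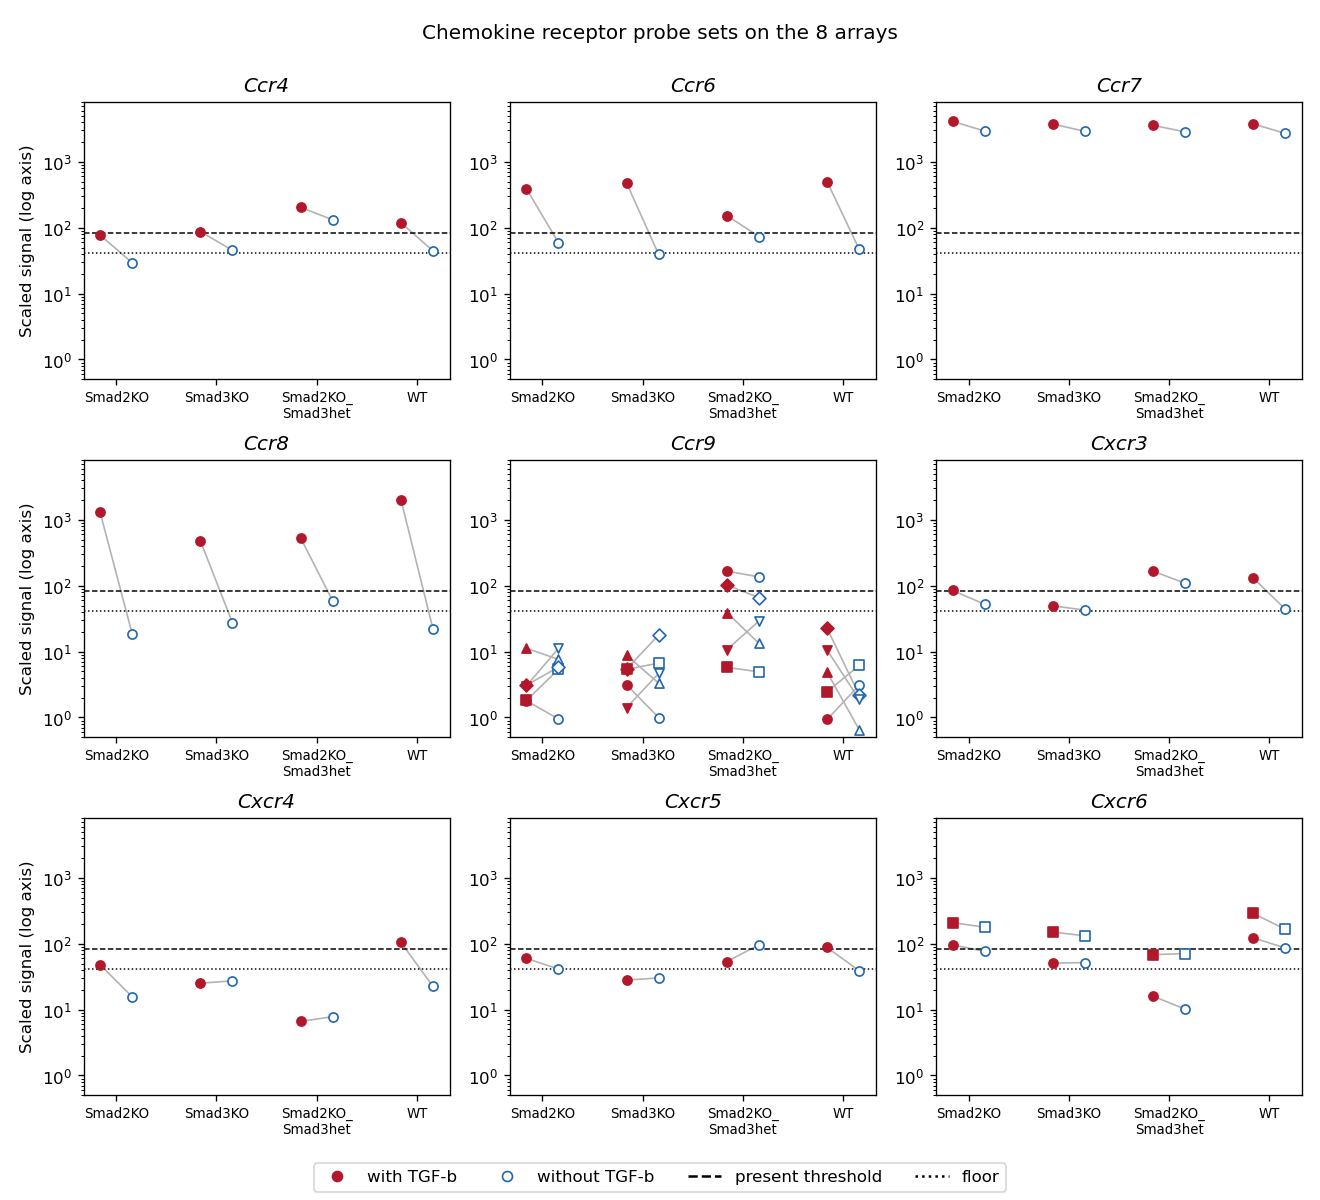
Scaled signal (log axis) of all 14 receptor probe sets on each of the 8 arrays, by genotype, filled with TGF-b and open without it. Different symbols in the Ccr9 and Cxcr6 panels are different probe sets, the dotted line is the floor of 41.8 and the dashed line the present threshold of 83.7. Ccr7 lies far above both lines on every array, and Ccr6 and Ccr8 pass the threshold only with TGF-b.

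Ccr8, the receptor for CCL1 in mouse and human, is found on regulatory and Th2 cells and on T cells of the skin. Its promoter is shown because Ccr8 had the largest ratio of the family. The sequence is the 250 bases before the RefSeq start at chr9:120091883-120092132 (GRCm38.p6, plus strand), written 5′ to 3′, with capitals marking CAGAC, the short site that Smad proteins bind, on either strand.
Ccr8: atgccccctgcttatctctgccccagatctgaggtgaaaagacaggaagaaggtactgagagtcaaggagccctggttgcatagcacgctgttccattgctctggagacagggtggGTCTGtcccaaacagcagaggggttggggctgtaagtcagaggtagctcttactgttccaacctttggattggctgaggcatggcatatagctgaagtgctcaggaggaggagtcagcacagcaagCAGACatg
The matches begin 134 and 8 bases before the start. A match is a description of letters only, and 42.2% of all 32851 such windows hold at least 1.

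The Ccr8 probe set (1422291_at) read 1295 with and 18.6 without TGF-b in Smad2KO, 479.7 with and 27.4 without in Smad3KO, and 2030.4 with and 22.0 without in WT. All 3 arrays without TGF-b lay under the floor and all 3 with it were far above. The probe set entered the tests through the arrays with TGF-b, so part of this separation follows from the filter. How many of all probe sets separate in this way was not counted, here or for Ccr6, Ccr4 and Ccr7 below. Such a separation is therefore given only as a description of the values. The ratio was at least 31.0-fold in Smad2KO, at least 11.5-fold in Smad3KO and at least 48.5-fold in WT. With TGF-b the Smad3KO signal was 4.23-fold below WT and the Smad2KO signal 1.57-fold below WT. With signals under the floor set to it, the fitted log2 mean response over the 3 genotypes was 4.69 (SE 0.444, limma adjusted p = 0.0109). The call was lost without the Smad2KO pair (4.56, limma adjusted p = 0.148) and with all 8 arrays (4.31, limma adjusted p = 0.0711).

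Ccr6 is the receptor for CCL20 and is a surface marker of Th17 cells, also carried by B cells. Windows before its 2 RefSeq starts are shown, since Ccr6 had the smallest p of the family. They span chr17:8235793-8236042 and chr17:8242276-8242525 (GRCm38.p6, plus strand), with CAGAC on either strand in capitals.
Ccr6, first start: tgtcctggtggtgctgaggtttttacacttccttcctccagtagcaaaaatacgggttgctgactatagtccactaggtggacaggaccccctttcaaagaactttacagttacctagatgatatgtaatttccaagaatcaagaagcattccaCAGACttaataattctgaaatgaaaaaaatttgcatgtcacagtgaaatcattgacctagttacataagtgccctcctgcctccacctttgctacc
Ccr6, second start: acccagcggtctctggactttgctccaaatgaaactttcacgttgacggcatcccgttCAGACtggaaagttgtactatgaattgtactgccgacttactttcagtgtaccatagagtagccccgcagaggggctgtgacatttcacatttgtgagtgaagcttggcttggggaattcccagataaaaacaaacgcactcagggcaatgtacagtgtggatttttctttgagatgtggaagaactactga
Each window holds 1 match, 96 bases before the first start and 192 before the second.

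The Ccr6 probe set (1450357_a_at) read 394 with and 59.3 without TGF-b in Smad2KO, 478 with and 39.3 without in Smad3KO, and 502 with and 47.3 without in WT. The 3 signals with TGF-b lay close to each other and well above the 3 without, which were near the floor. The ratio was 6.64-fold in Smad2KO, at least 11.4-fold in Smad3KO and 10.6-fold in WT. The fitted log2 mean response was 3.22 (SE 0.179, limma adjusted p = 1.38e-05). Its call was lost with all 8 arrays (2.68, limma adjusted p = 0.127) and held under the other settings run. All 5 B cell markers lay under the floor on these arrays.

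Ccr4 binds CCL17 and CCL22 and is carried by Th2 cells, regulatory T cells and skin-homing T cells. Its upstream window is shown because it alone among the receptors' windows holds the AP-1 motif TGANTCA, a site for Fos and Jun proteins, in capitals below. The window is chr9:114496545-114496794 (GRCm38.p6, minus strand).
Ccr4: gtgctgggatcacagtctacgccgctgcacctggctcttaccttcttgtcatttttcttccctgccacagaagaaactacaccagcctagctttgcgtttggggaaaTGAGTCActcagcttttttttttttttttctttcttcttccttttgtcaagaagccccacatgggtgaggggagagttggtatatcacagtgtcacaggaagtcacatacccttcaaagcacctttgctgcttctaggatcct
The match begins 143 bases before the start, and 6.75% of all windows hold one. Windows were found for 7 of the 9 receptors, 8 windows in all (Ccr4, Ccr6, Ccr8, Ccr9, Cxcr3, Cxcr4 and Cxcr6). Of these 4 held CAGAC and 0 held the Smad palindrome GTCTAGAC, which 0.167% of all windows hold. CAGAC, GTCTAGAC and TGANTCA were searched on both strands, and no match of one overlapped a match of another in these windows.

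The Ccr4 probe set (1421655_a_at) read 77.005 with and 29.5 without TGF-b in Smad2KO, 87.4 with and 45.5 without in Smad3KO, and 119 with and 44.5 without in WT. All signals with TGF-b were above all without, but the Smad2KO signal with TGF-b stayed under the present threshold. The ratio was at least 1.84-fold in Smad2KO, 1.92-fold in Smad3KO and 2.68-fold in WT. The fitted mean response was 1.08 (SE 0.232, limma adjusted p = 0.0182). It did not pass with the floor doubled (0.19, limma adjusted p = 0.384), without the WT pair (0.91, limma adjusted p = 0.170), without the Smad2KO pair (1.18, limma adjusted p = 0.103) or with all 8 arrays (0.97, limma adjusted p = 0.134).

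Ccr7 binds CCL19 and CCL21 and holds naive and central memory T cells in lymph nodes. Its probe set (1423466_at) read 4130.2 with and 2938 without TGF-b in Smad2KO, 3757 with and 2909 without in Smad3KO, and 3773 with and 2702 without in WT. The 3 signals with TGF-b were all above the 3 without. The ratios were small and alike, 1.41-fold in Smad2KO, 1.29-fold in Smad3KO and 1.396-fold in WT, and the mean response was 0.45 (SE 0.0681, limma adjusted p = 0.00345). The call was lost without limma's trend and robust settings (adjusted p = 0.0662), without the Smad2KO pair (0.43, limma adjusted p = 0.0686) and with all 8 arrays (0.42, limma adjusted p = 0.0803).

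Of the 5 CXC receptor probe sets 0 passed limma's adjusted threshold for the mean response, while 2 had an unadjusted p under 0.05. Cxcr3, the receptor for the interferon-induced chemokines CXCL9, CXCL10 and CXCL11 and a mark of Th1 cells, read 84.8 with and 52.5 without TGF-b in Smad2KO, 49.6 with and 42.7 without in Smad3KO, and 131 with and 44.0 without in WT. Only the Smad2KO and WT arrays with TGF-b were present, and the Smad3KO signal with TGF-b lay among those without it. The ratio was 1.62-fold in Smad2KO, 1.16-fold in Smad3KO and 2.98-fold in WT, with a mean response of 0.83 (SE 0.288, limma adjusted p = 0.106). Without the Smad3KO pair it passed (1.13, limma adjusted p = 0.0368). Ifng, the Th1 cytokine gene, read 28.9 with and 38.7 without TGF-b in Smad2KO, 153 with and 231 without in Smad3KO, and 29.9 with and 55.6 without in WT. It was thus brightest in Smad3KO, where Cxcr3 was dimmest with TGF-b, and its part in the Cxcr3 values was not tested. Ifng was read together with the memory and effector markers Cd44, Il7r and Gzmb. With TGF-b these too were highest in Smad3KO, Gzmb under the floor. Without TGF-b each of them was highest in Smad2KO or WT.

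Cxcr4, the receptor for CXCL12, which holds cells in bone marrow and is widely carried by resting T cells, was present on 1 array. Its probe set (1448710_at) read 48.0 with and 15.7 without TGF-b in Smad2KO, 25.1 with and 27.4 without in Smad3KO, and 105 with and 22.5 without in WT. Both Smad3KO signals were under the floor and gave no ratio, and the ratio was at least 1.15-fold in Smad2KO and at least 2.51-fold in WT. The mean response was 0.51 (SE 0.318, limma adjusted p = 0.345).

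Cxcr5 binds CXCL13 and brings B cells and follicular helper T cells into follicles. Its probe set (1422003_at) read 60.0 with and 41.4 without TGF-b in Smad2KO, 28.1 with and 30.3 without in Smad3KO, and 87.9 with and 38.8 without in WT. The WT array with TGF-b was again the only one at the present threshold, and both Smad3KO signals were under the floor. The ratio was at least 1.43-fold in Smad2KO and at least 2.10-fold in WT, and the mean response was 0.53 (SE 0.291, limma adjusted p = 0.282).

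Cxcr6, the receptor for CXCL16, marks effector T cells that settle in tissues such as the liver. Its brighter probe set (1425832_a_at) read 209.5 with and 178 without TGF-b in Smad2KO, 150.3 with and 132 without in Smad3KO, and 288 with and 166 without in WT. Its dimmer probe set (1422812_at) read 96.3 with and 76.8 without in Smad2KO, 51.0 with and 51.6 without in Smad3KO, and 123 with and 86.2 without in WT. On both probe sets the 2 Smad3KO arrays were the lowest of the 6, with or without TGF-b. The ratios were 1.18-fold and 1.25-fold in Smad2KO, 1.14-fold and 0.989-fold in Smad3KO, and 1.74-fold and 1.43-fold in WT, for the brighter and the dimmer probe set in turn. The mean responses were 0.41 (SE 0.156, limma adjusted p = 0.139) and 0.27 (SE 0.207, limma adjusted p = 0.439).

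Ccr9 binds CCL25 and takes T cells to the small intestine. Its 5 probe sets read 0.653 to 22.6 on the 6 arrays, under the floor throughout, so neither a level nor a ratio could be given. Other chemokine receptors did not reach the present threshold either. Of 12 further receptors with 21 probe sets, among them Ccr1, Ccr2, Ccr3, Ccr10, Cxcr2, Cx3cr1, Xcr1 and the scavenging receptors Ackr1 to Ackr4, 0 were present on any of the 6 arrays, and the highest of their signals there was 58.5 (Ackr4).

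**Figure D2:**
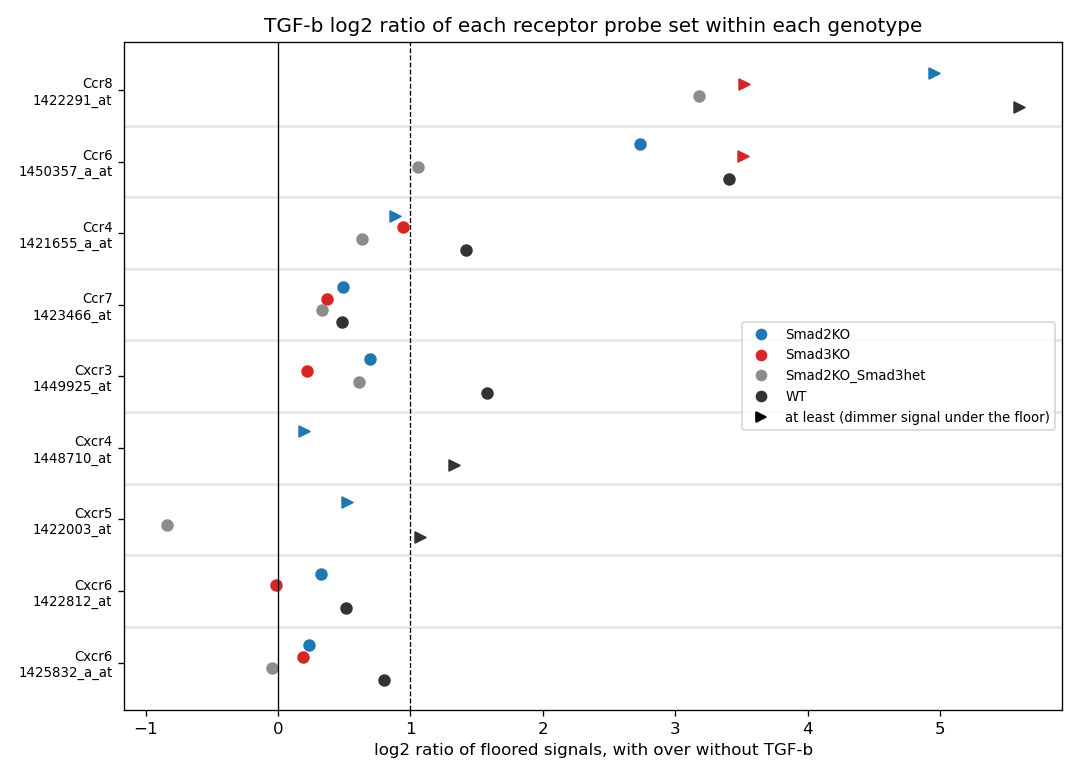
Log2 ratio of floored signals with over without TGF-b within each genotype, for the 9 receptor probe sets that were present on at least 1 of the 6 arrays. Triangles are lower bounds where the signal without TGF-b was under the floor, missing points had both signals under it, and the dashed line marks 2-fold. For Cxcr3 and Cxcr6 the WT point lies to the right of the Smad2KO and Smad3KO points, while the Ccr7 points lie close together and the highest Ccr6 point is that of Smad3KO, a bound.

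In single genotypes, 2 of 6 bright receptor probe sets were at least 2-fold higher in Smad2KO (3.1% of all bright probe sets), 2 of 5 in Smad3KO (1.69%) and 6 of 9 in WT (4.06%). The 2 in Smad2KO and Smad3KO were Ccr6 and Ccr8. WT added Ccr4, Cxcr3, Cxcr4 and Cxcr5. Without TGF-b in WT, Ccr4 and Cxcr3 were just above the floor and Cxcr4 and Cxcr5 under it, and these 4 were present in WT only with TGF-b, so the filter favoured a rise. The WT count was 2 with the floor doubled and 3 with the pseudocount of 50. None was 2-fold lower in these genotypes, where 0.591% to 2.18% of bright probe sets were. The ratios of Cxcr3 and of both Cxcr6 probe sets were lowest in Smad3KO, then Smad2KO, and highest in WT. Those of Cxcr4 and Cxcr5 have no such order, since both Smad3KO signals were under the floor and the other ratios are bounds. This order was looked for after the values were seen, and the spread of ratios over all probe sets ran the same way, with a robust SD of 0.263 in Smad2KO, 0.198 in Smad3KO and 0.321 in WT. With signals under the floor set to it, 20.4% of all tested probe sets had this order. Among those with a WT log2 ratio of at least 0.5, as Cxcr3 and both Cxcr6 probe sets had, 52.6% did. These shares also count probe sets whose ratios are bounds, which those of Cxcr3 and Cxcr6 are not. The order is thus not particular to these receptors. The Ccr8 ratios were all bounds, so they give no such order either.

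The test of the difference asked whether the Smad3KO response departed from the mean of the Smad2KO and WT responses. Ccr8 was the only receptor with an unadjusted p under 0.05. Its response was 1.76 lower on the log2 scale in Smad3KO (difference -1.76, SE 0.320, 95% interval -2.46 to -1.06), which did not pass limma's adjusted threshold (adjusted p = 0.101). The adjusted p ranged from 0.00901 to 0.852 over the settings run. It passed with arrays centred on their medians (-1.69, limma adjusted p = 0.00901) and with a pseudocount of 50 in place of the floor (-1.80, limma adjusted p = 0.0486). Since all signals without TGF-b were under the floor, the difference rests on the 3 arrays with TGF-b. In all, 0.0114% of 17493 probe sets were called higher and 0.103% lower in this comparison, and 0 of the 9 receptor probe sets.

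The other receptors had intervals too wide to place them. The difference for Ccr6 was 0.44 (95% interval -0.35 to 1.24), for Ccr4 -0.21 (-1.37 to 0.96) and for Ccr7 -0.12 (-0.45 to 0.22). For Cxcr3 it was -0.92 (-2.17 to 0.33), for Cxcr4 -0.76 (-2.23 to 0.71), for Cxcr5 -0.80 (-2.15 to 0.56) and for Cxcr6 -0.33 and -0.44 (-1.04 to 0.38 and -1.44 to 0.57). Of these 7 receptors Ccr7 thus had the narrowest interval and Cxcr4 the widest. When Smad2KO was set against the mean of Smad3KO and WT, 0 receptor probe sets passed limma's test and 0 had an unadjusted p under 0.05. The value nearest to it was Ccr6, at -0.73 (95% interval -1.48 to 0.02, limma adjusted p = 1.0). Across all 17486 probe sets 0 were called in that comparison, and 420 had an unadjusted p under 0.05.

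**Figure D3:**
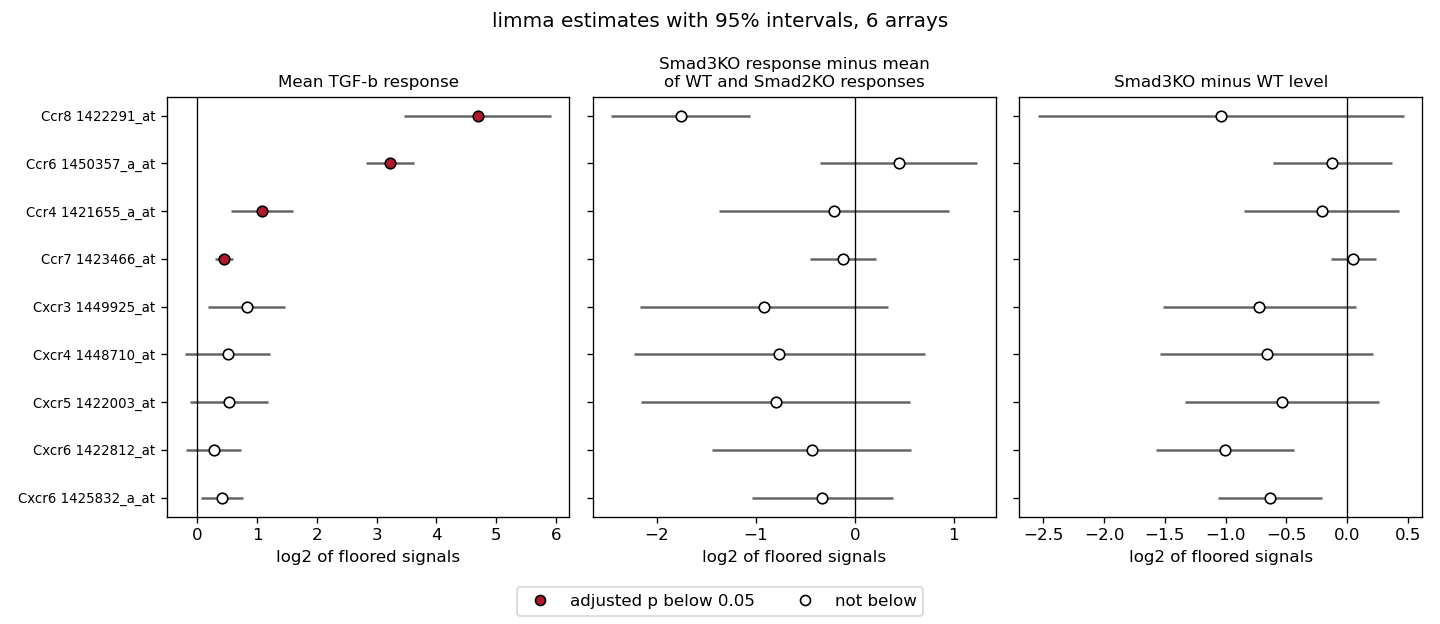
limma estimates with 95% intervals for the 9 receptor probe sets on 6 arrays, as the mean TGF-b response, the Smad3KO response minus the mean of the WT and Smad2KO responses, and the Smad3KO minus WT level, all on the log2 scale of floored signals. Filled points passed the adjusted threshold, which only Ccr8, Ccr6, Ccr4 and Ccr7 did, in the first panel.

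Levels were also compared between genotypes over both treatments, with treatment as a block. Cxcr6 was the receptor with the smallest p, lower in Smad3KO than in WT on both probe sets, with log2 differences of -1.003 (SE 0.254, limma adjusted p = 0.185) and -0.63 (SE 0.192, limma adjusted p = 0.275). Neither passed the adjusted threshold, although both 95% intervals lay below 0 (-1.57 to -0.43 and -1.06 to -0.20). The dimmer probe set read 1.67-fold lower in Smad3KO than in WT already without TGF-b, and 2.41-fold lower with it. Its Smad3KO signals were under the present threshold. The brighter probe set read 1.26-fold lower without TGF-b and 1.92-fold lower with it. With the floor doubled the level difference was -0.30 for the dimmer and -0.63 for the brighter probe set. For Ccr7 the level difference was 0.05 in Smad3KO (95% interval -0.14 to 0.24) and 0.13 in Smad2KO (-0.06 to 0.31). limma called 0 of the 9 receptor probe sets in either genotype, with 2 at an unadjusted p under 0.05 in Smad3KO and 0 in Smad2KO. Over all probe sets 0.114% were called higher and 0.177% lower in Smad3KO, and 0.457% higher and 0.389% lower in Smad2KO. Centring arrays on their medians moved the median level difference of all probe sets to 0.18 in Smad3KO and 0.16 in Smad2KO. With that centring the Cxcr6 differences in Smad3KO were -0.83 and -0.46.

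On the Smad2KO_Smad3het arrays Ccr8 read 532 with and 58.7 without TGF-b, Ccr6 153 with and 73.6 without, and Ccr7 3588 with and 2855 without. All 3 were higher with TGF-b here too, but the signals of Ccr8 and Ccr6 without TGF-b lay under that array's median of 88.0. Ccr4 read 204 with and 132 without, Cxcr3 167 with and 109 without, and Cxcr5 53.7 with and 96.2 without. Cxcr5 was 1.79-fold lower with TGF-b, where its signal lay under that array's median of 90.9. Cxcr4 read 6.63 with and 7.81 without. The Cxcr6 probe sets read 68.5 and 15.996 with TGF-b and 70.9 and 10.2 without. These Cxcr4 and Cxcr6 signals were below those on all other arrays. Of the Ccr9 probe sets, 1421919_a_at read 167 with and 136 without and 1436065_at 102 with and 66.0 without, whereas the other 3 read 4.92 to 39.3. The 5 probe sets of this gene thus disagreed on these arrays, and the part of the B cell, myeloid, NK cell and CD8 T cell signals listed above was not tested. In this genotype 2 of 8 bright receptor probe sets were at least 2-fold higher, beside 12.6% of all bright probe sets.

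The chemokines that the receptors bind were mostly under background in these cultures. Of 16 chemokine genes read, 5 were tested, 2 rose and 1 fell, beside 6.24% and 3.73% of all probe sets, with a median response of -0.47 against -0.00085 over all. That median was 0.21 with the floor at the median of the 6 arrays and 0.23 with a filter on mean signal, and 0 chemokines were called with all 8 arrays. Ccl1, the ligand of Ccr8, read 119.7 with and 54.7 without TGF-b in Smad2KO, 194 with and 41.2 without in Smad3KO, and 162 with and 61.9 without in WT. It was higher with TGF-b in all 3 genotypes, with a fitted mean response of 1.58 (SE 0.232, limma adjusted p = 0.00281). Its ratio in Smad3KO was at least 4.63-fold. Ccl1 was present only on arrays with TGF-b, so it entered the test through the condition in which it was high. Xcl1, a chemokine of activated T and NK cells, rose by 1.18 (SE 0.235, limma adjusted p = 0.0249), and Ccl4, an inflammatory chemokine, fell by 0.73 (SE 0.170, limma adjusted p = 0.0427). No chemokine was called lower with quantile normalization, with the floor doubled or without the Smad2KO pair, among other settings. Ccl3 was at -1.14 (limma adjusted p = 0.129), and Ccl25, the ligand of Ccr9, at -0.47 (limma adjusted p = 0.195). Ccl25 was present only on arrays without TGF-b, so for it the filter favoured a fall.

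Ccl20, the ligand of Ccr6, did not reach the present threshold and was not tested. It read 39.5 with and 3.35 without TGF-b in Smad2KO, 47.9 with and 3.00 without in Smad3KO, and 70.2 with and 4.54 without in WT. Every signal without TGF-b was far under the floor, and those with it lay about the floor. The ligands of Cxcr3 (Cxcl9, Cxcl10 and Cxcl11), Cxcr4 (Cxcl12) and Ccr4 (Ccl17 and Ccl22) were under the floor on all 6 arrays.

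Other homing receptors were read beside the chemokine receptors. Of 9 on the array 8 were tested, 4 rose and 1 fell, beside 6.24% and 3.73% of all probe sets, with a median of 0.37. The counts were 2 and 1 without the Smad2KO pair and 0 and 0 with all 8 arrays. S1pr1, the receptor through which T cells leave lymphoid organs, rose by 1.16 (SE 0.200, limma adjusted p = 0.00663). It read 169.9 with and 81.3 without TGF-b in Smad2KO, 107 with and 61.3 without in Smad3KO, and 178 with and 58.3 without in WT. S1pr1 was present only on arrays with TGF-b, so it entered the test through the condition in which it was high. Selplg, the carrier of selectin ligands, rose by 1.17 (SE 0.133, limma adjusted p = 0.00168), Itgb7, a subunit of gut-homing integrins, by 0.63 (SE 0.107, limma adjusted p = 0.00610) and the prostaglandin receptor gene Ptger4 by 0.44 (SE 0.0681, limma adjusted p = 0.00389). Gpr183, an oxysterol receptor that positions activated lymphocytes at follicle borders, fell by 0.94 (SE 0.123, limma adjusted p = 0.00167). Its brighter probe set read 425 with and 815 without in Smad2KO, 452 with and 694 without in Smad3KO, and 259 with and 619 without in WT. Itgae, the integrin of intraepithelial T cells, was under the floor on all 6 arrays, so it was not tested.

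Genes that carry or stop the receptor signal moved in both directions. Of 15 tested, 2 rose and 2 fell, beside 6.24% and 3.73% of all probe sets, with a median of 0.09. With the trend and robust options of limma off the counts were 1 and 0, and they were 1 and 1 with the floor doubled, without the genotype block or without the Smad2KO pair, and 0 and 0 with all 8 arrays. Rgs10, which speeds the shut-off of G proteins, rose by 0.84 (SE 0.129, limma adjusted p = 0.00647), and Arrb1, an arrestin that uncouples receptors, by 0.79 (SE 0.193, limma adjusted p = 0.0320). Arrb1 was present only on arrays with TGF-b, so for it the filter favoured a rise. Rgs2, another regulator of G proteins, fell by 1.12 (SE 0.172, limma adjusted p = 0.00636), and Grk5, a kinase that marks receptors for arrestins, by 0.79 (SE 0.210, limma adjusted p = 0.0446). The G protein subunits Gnai2, Gnai3 and Gnb1 were at 0.24, -0.01 and 0.09, with limma adjusted p of 0.101 to 0.949.

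**Figure D4:**
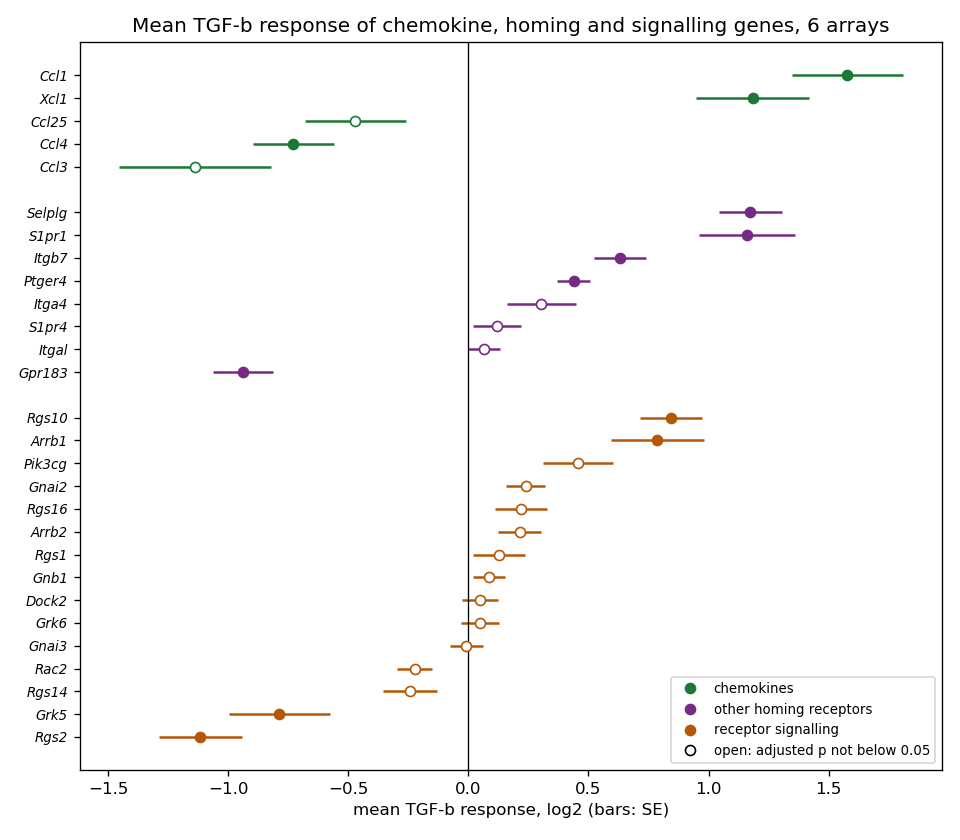
Mean TGF-b response on the log2 scale, with SE, of the tested chemokine, homing receptor and receptor signalling genes on the 6 arrays, 1 probe set a gene, the one with the highest mean. Filled points passed the adjusted threshold. Ccl1, Xcl1, Selplg and S1pr1 lie above 1, and Rgs2 and the open point of Ccl3 lie below -1.

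Genes with the most similar pattern to each receptor were taken by Pearson correlation of log2 floored signals over the 6 arrays, which were scaled together, among probe sets that varied by at least 1 on the log2 scale. These coefficients describe 6 arrays and are the highest of many, so high values arise readily. The genes were chosen by their likeness on these arrays, so a pattern shared with the receptor follows from the choice. For Ccr8 the 3 nearest were Maf (0.999), Adam19 (0.999) and Egln3 (0.999), all likewise under the floor without TGF-b and dimmest in Smad3KO among the arrays with it. For Ccr6 they were Cd72 (0.997), Pmepa1 (0.994) and Pdgfb (0.993), whose signals with TGF-b were close in all 3 genotypes. Pmepa1, whose protein restrains the TGF-b pathway that induces it, read 426 with and 86.3 without in Smad2KO, 437 with and 79.9 without in Smad3KO, and 588 with and 80.5 without in WT. For Ccr4 they were Calhm2 (0.999), Anxa4 (0.997) and Cpd (0.997), and for Ccr7 Ttc39b (0.992), Fbxo30 (0.991) and Rragd (0.987).

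For the CXC receptors the nearest genes had their highest signal in WT with TGF-b, as the receptors did, which again follows from the choice. For Cxcr3 they were Ap1s2 (0.994), Galnt10 (0.993) and Dgkh (0.991), for Cxcr4 Spsb1 (1.0), Fes (0.997) and Sphk1 (0.996), and for Cxcr5 Stab1 (0.997), Endod1 (0.995) and Plekhf2 (0.994). Spsb1, an inhibitor of inducible nitric oxide synthase, was like Cxcr4 under the floor on 4 of 6 arrays, which limits what that coefficient can show. The 2 Cxcr6 probe sets had different neighbours, Cux1 (0.984), Mideas (0.982) and Tom1 (0.981) for the brighter and Arsb (0.973), Thy1 (0.965) and Kcnj11 (0.960) for the dimmer. Kcnj11, a potassium channel subunit, read 1129.9 with and 755 without TGF-b in Smad2KO, 188 with and 119 without in Smad3KO, and 1474 with and 884 without in WT, so like Cxcr6 it was lowest on the 2 Smad3KO arrays.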

How the data were processed

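Gene expression was measured on 1-colour Affymetrix arrays from 6 ug of total RNA per sample, 8 arrays in all, 1 per genotype and treatment. The authors deposited linear probe set intensities. GCOS 1.4 is named in the submitters' processing notes, and the sources used here do not give its algorithm or scaling. Deposited medians ran from 27.3 to 44.4, so each array was scaled to a common 2% trimmed mean of 216, with factors of 0.726 to 2.22. Signals under the floor of 41.8 were set to it before log2, and a fold against such a signal is a bound. The floor is the median of the 45037 probe sets that are not controls. Precision is limited by the number of arrays.

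Gene names came from the platform annotation, where 34945 probe sets had 1 symbol, 932 had several and were not named, and 9160 had none. RefSeq's gene table (GRCm38.p6) changed 0 symbols and gave chromosomes, and promoter sequences came from RefSeq on the same build.

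Probe sets present on at least 1 of 6 arrays were tested with limma 3.58.1 in R 4.3.3 (trend and robust settings, Benjamini-Hochberg over all 17497). The fits left 2 residual degrees of freedom (mean responses, levels) or 1 (differences between responses), and probe sets without residual spread were left out. The fits were tested on simulated data. The Smad2KO_Smad3het arrays entered as values and as an alternative. Named genes were all receptor probe sets, the called members of 4 lists (other chemokine receptors, other homing receptors, chemokines, receptor signalling), ligands of the receptors, and the 3 genes most like each receptor. For a list gene the probe set of highest mean was used. The members, lists and tests were chosen with earlier results of these data known. Figures were drawn with matplotlib 3.10.9.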

Additional observations from a re-analysis of the deposited data

How the results depend on the processing

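Alternatives were quantile normalization, median centring, other floors, a pseudocount of 50, no filter or one on mean signal, limma without trend and robust settings, 1 probe set per gene, all 8 arrays, no genotype block, and leaving out each genotype's pair. The 4 receptor probe sets called higher in the mean response became 0 with all 8 arrays and 1 to 5 when a pair was left out, where 1 residual degree of freedom remained. The count was 1 without the Smad2KO pair, when Ccr6 alone passed. It was 3 or 4 under the alternatives that kept the 6 arrays, and 0 receptor probe sets were called lower under any. Over all probe sets the main counts of 1092 higher and 652 lower became 19 and 3 with all 8 arrays, 560 and 273 with the floor doubled, 540 and 196 without trend and robust settings, 481 and 189 with no filter, 598 and 283 without the genotype block, and 438 to 1305 and 201 to 972 when a pair was left out. Level calls, 80 higher and 68 lower in Smad2KO and 20 and 31 in Smad3KO, became 346 and 61, and 353 and 40, with centred arrays, so their split depends on the scaling. For the smaller Smad3KO response, 1 receptor probe set (Ccr8) was called lower in place of 0 with centred arrays and likewise 1 with the pseudocount, which replaces the floor. The receptor probe sets at least 2-fold higher in WT were 6, and 2 with the floor doubled and 3 with the pseudocount, both of which shrink ratios of dim signals by construction. In Smad2KO_Smad3het they were 2, and 1 with centred arrays, 1 with the floor doubled and 1 with the pseudocount. No called receptor response changed sign under any alternative run. The labels give no replicate numbers, and the test of the mean response paired the arrays with and without TGF-b by genotype.

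The precision is limited by 1 array per combination. Of the 9 tested receptor probe sets, 6 were present only with TGF-b, so their responses depend on the floor, and the deposited values used here carry no detection calls.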
